A study of Homo sapiens with 9 samples.

Results

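The 10 genes described here are the 3 MYC paralogs MYC, MYCN and MYCL, their dimer partner MAX, the antagonists MXD1, MXD3, MXD4 and MNT, the related partner MLX, and the RNA-binding protein gene LIN28B. They were chosen by name, and each matched 1 of the 61487 gene identifiers that were counted. Transcripts were measured by RNA-seq of total RNA from SH-SY5Y, a line established from human neuroblastoma that resembles sympathetic neuron precursors. The cells were kept for 72 h with citrinin, a mycotoxin of Penicillium, Aspergillus and Monascus moulds, at 0, 10 or 20 µM, in MEM/F12 medium with 15% FBS. Each dose had 3 libraries, numbered 1 to 3, and the 0 µM libraries are called controls here because the labels name no solvent. All 9 libraries come from 1 cell line, and the labels do not say whether replicates were separate cultures or what a replicate number marks, so each p-value reflects only how these libraries vary among themselves, which may be technical.

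MYC proteins are basic helix-loop-helix leucine-zipper factors that bind DNA as dimers with MAX, at the E-box CACGTG, and raise transcription of genes for ribosome building, metabolism and the cell cycle. MXD proteins and MNT compete for MAX and recruit SIN3 repressor complexes to the same sites, and MLX dimerises with some of them and with the glucose-sensing factors MLXIP and MLXIPL. Amplified MYCN marks an aggressive form of neuroblastoma, and SH-SY5Y is known as a line without that amplification in which MYC is the main paralog. LIN28B blocks maturation of let-7 microRNAs, which in turn repress MYC, MYCN and LIN28B.

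All 10 genes are protein-coding in GENCODE 29, and positions are on GRCh38. MYCN is at chr2:15940564-15947007 and MYCL at chr1:39895426-39902256. MAX is at chr14:65006174-65102695 and MLX at chr17:42567068-42573239. The antagonists are MXD1 at chr2:69897688-69942945, MXD3 at chr5:177301461-177312757, MXD4 at chr4:2247432-2262294 and MNT at chr17:2384060-2401118. LIN28B is at chr6:104936616-105083332.

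The palindrome CACGTG, the site that MYC-MAX and MXD-MAX dimers share, was searched in the RefSeq windows (GRCh38.p14) from 250 bases before to 50 bases after each annotated start. Of 11 windows that belong to 9 of the 10 genes, 4 held it, against 7.26% of all 35116 windows of 300 bases. MYC had no window and was not searched. The 4 belong to MXD4, MNT, MLX and LIN28B, so they include antagonists and MLX itself. The windows of MYCN, MYCL, MXD1, MXD3 and MAX held no match, and neither did another window of LIN28B. The sequences around the match that lie upstream of annotated exons are printed 5′ to 3′ on the gene's strand to show the shared site, with the E-box in capitals.
MXD4: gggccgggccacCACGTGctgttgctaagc
MNT: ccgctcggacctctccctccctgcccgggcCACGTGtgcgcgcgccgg
MLX: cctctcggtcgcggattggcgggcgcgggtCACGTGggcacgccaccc
These stretches are chr4:2262330-2262359 (minus strand), chr17:2401236-2401283 (minus strand) and chr17:42567020-42567067 (plus strand). The match begins 238 bases before the RefSeq start of MXD4, 193 before that of MNT and 50 before that of MLX. A match in letters is a description of the sequence and shows no binding.

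Reads assigned to genes ran from 15678443 to 19604367 per library, and levels are given as CPM, which divides counts by the total of these reads after TMM scaling. For libraries of this depth 3 reads equal 0.153 to 0.193 CPM, and all 10 genes lay above that in every library. The neuroblastoma identity of the cells was checked on 12 adrenergic markers, all with enough reads to test, whose summed level was 2678 to 4174 CPM. The 12 mesenchymal neuroblastoma markers summed to 3835 to 6014 CPM. The 5 blood and endothelial markers summed to at most 1.56 CPM, and the Schwann markers FOXD3 and CDH19 had 1 and 0 reads in all libraries together. Likeness between libraries followed replicate number more than dose, so every dose comparison is given both as planned and with the replicate number as a block.

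Averaged over all 9 libraries, MAX had the highest level per kilobase of annotated exon of the 10 transcripts and MYCL the lowest. By the same length MYC lay above MAX in the 3 libraries numbered 1. Over these 9 libraries the level per kilobase of annotated exon was 14.3 ± 1.47 CPM per kb for MAX (SD, n = 9). It was 11.8 ± 0.60 for MLX, 10.6 ± 6.45 for MYC and 9.87 ± 0.998 for MXD4. The antagonists other than MXD4 followed closely together, MNT at 2.74 ± 0.17, MXD1 at 2.69 ± 0.34 and MXD3 at 2.58 ± 0.65 CPM per kb. LIN28B stood at 1.72 ± 0.22, MYCN at 1.28 ± 0.34 and MYCL at 0.53 ± 0.10 CPM per kb. The lowest MAX library, 12.9, was above the highest MLX library, 12.5, and the lowest MYCN library, 0.681, was above the highest MYCL library, 0.650. The lowest MXD4 library, 8.60, was also above the highest MNT library, 3.04. Each of the other neighbouring pairs in this order overlapped in range. With the longest coding transcript as length, the control means of MAX, MLX and MXD4 came to 19.7, 19.1 and 17.9 CPM per kb and that of MXD3 to 5.64, so the order among close neighbours depends on the gene model.

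MYC stood apart by replicate number rather than by dose. It measured 61.1, 20.4 and 19.9 CPM in control replicates 1, 2 and 3, 58.6, 21.2 and 21.1 CPM at 10 µM, and 52.6, 15.6 and 16.8 CPM at 20 µM. All 3 libraries numbered 1 lay above 52 CPM and all others below 22 CPM, so the 3 dose groups overlapped almost fully. In a sum of squares on the log2 scale, replicate number held 96.2% of the variance of MYC and dose 3.34%, against medians of 55.1% and 11.4% over all 17806 tested genes. Only 4.11% of tested genes varied more than MYC over the 9 libraries.

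**Figure D1:**
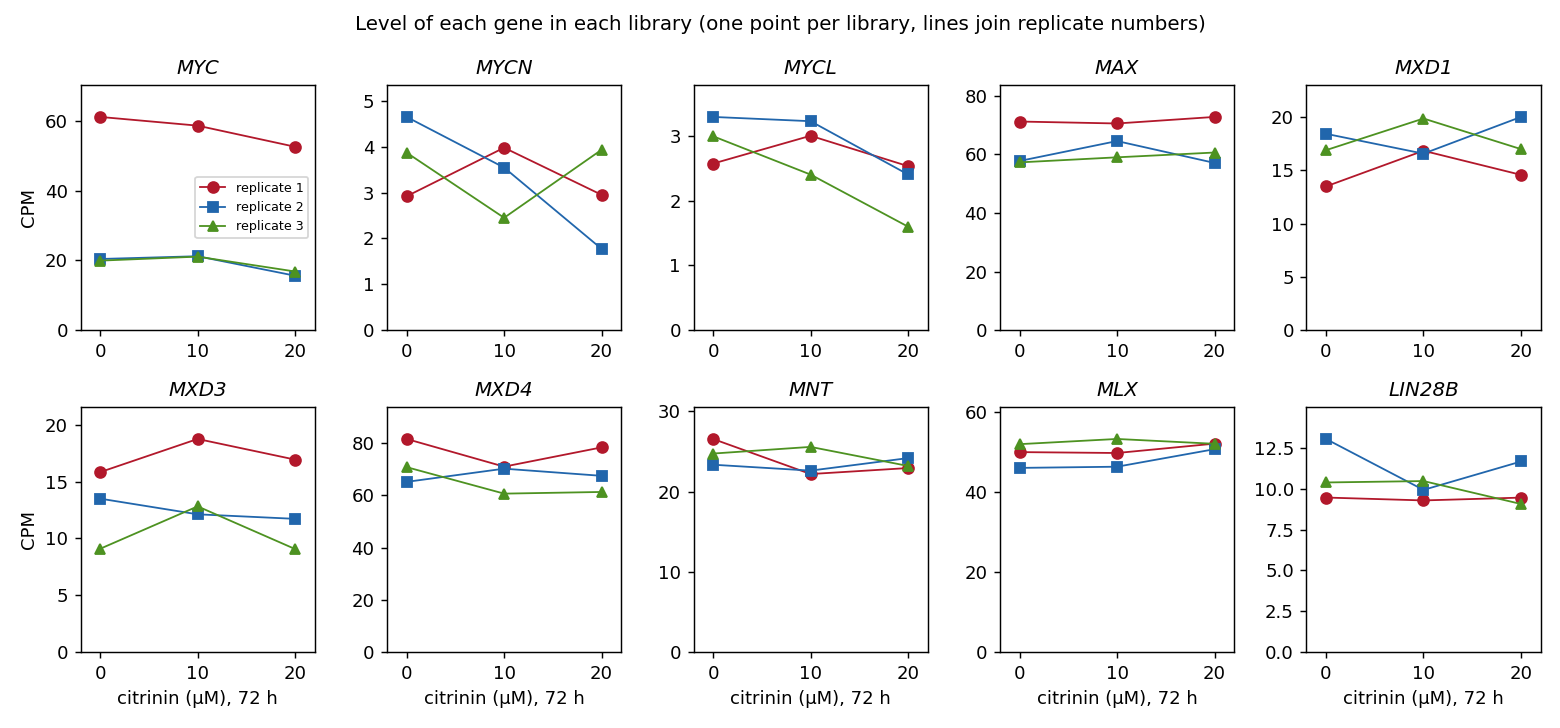
CPM of the 10 genes in each of the 9 libraries against citrinin dose in µM, with 1 point per library and lines that join libraries of the same replicate number; each panel has its own scale from 0. The 3 libraries numbered 1 lie between 52.6 and 61.1 CPM for MYC and the other 6 between 15.6 and 21.2 CPM.

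At 20 µM against control, 0 of the 10 genes passed the threshold of 0.05 on the Benjamini-Hochberg adjusted p of edgeR's quasi-likelihood test, in the planned fit and in the fit with the replicate block. Across all genes the planned fit called 0 of 17806 (0%), with 387 (2.17%) at an unadjusted p below 0.05, while DESeq2 called 11 and limma-voom 0. The blocked fit called 393 (2.21%), of which 151 (0.848%) were higher and 242 (1.36%) lower. At an unadjusted p below 0.05 the blocked fit had 1 of the 10 genes, MYC, and 13.1% of all tested genes. The median log2 change of the 10 genes was -0.08 in the blocked fit, against -0.0016 over all tested genes.

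MYC was lower at 20 µM than in the control of the same number in 3 of 3 pairs. The log2 differences were -0.22, -0.38 and -0.24. The share of all tested genes with 3 of 3 pairs in one direction was not computed for any dose comparison. The fitted log2 change of MYC was -0.26 ± 0.70 (SE) without the block, where the gap between replicate 1 and the rest counts as error. With the block it was -0.27 ± 0.08. The blocked adjusted p of edgeR was 0.0702, with an unadjusted p of 0.0019. Limma-voom with the block gave an adjusted p of 0.042 and DESeq2 with the block 0.176. With the block, leaving out 10 µM replicate 1, 10 µM replicate 2 or 20 µM replicate 1 brought edgeR's adjusted p to 0.0494, 0.0313 and 0.0313, and over all single libraries and replicate numbers left out it ran from 0.0313 to 0.489. Without the block the direction itself turned when control replicate 1 was left out, to 0.49, and likewise without 20 µM replicate 2 (0.035) or 20 µM replicate 3 (0.0089).

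MYCL was the one gene of the 10 whose 20 µM and control values did not overlap, a pattern seen in 6.75% of all tested genes. It measured 2.57, 3.29 and 2.99 CPM in controls 1, 2 and 3 and 2.53, 2.40 and 1.60 CPM at 20 µM. The pair numbered 1 was nearly level and the pair numbered 3 differed most. The blocked log2 change was -0.45 ± 0.24, with an adjusted p of 0.435 in edgeR, and it rests on 153 reads in the controls and 112 at 20 µM. MYCN, at 2.92, 4.65 and 3.87 CPM in controls, measured 2.95, 1.77 and 3.93 CPM at 20 µM. Replicate 2 alone was low at 20 µM, the pairs numbered 1 and 3 differed by 0.015 and 0.023 on the log2 scale, and the blocked change of MYCN was -0.41 ± 0.27 (adjusted p 0.567, edgeR).

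The partners, the antagonists and LIN28B had smaller fitted changes than the 3 paralogs. MAX, the obligate partner, had a blocked log2 change of 0.03 ± 0.06 at 20 µM against control, MLX 0.07 ± 0.06 and MNT -0.09 ± 0.09. Among the MXD genes the changes were 0.08 ± 0.11 for MXD1, -0.04 ± 0.12 for MXD3 and -0.07 ± 0.06 for MXD4. LIN28B had -0.12 ± 0.12. These 7 genes had adjusted p of 0.688 to 0.943 in the blocked fit. MLX and MXD1 were higher in 3 of 3 pairs and LIN28B was lower in 2 of 3 and level at 9.46 CPM in the pair numbered 1. The control and 20 µM ranges of MLX, MXD1 and LIN28B overlapped.

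At 10 µM against control, 0 of the 10 genes passed in either edgeR fit, and the largest blocked changes were -0.21 ± 0.26 for MYCN and 0.20 ± 0.12 for MXD3. MYC had 0.01 ± 0.08 with the block, and was higher in 2 of 3 pairs. Over all genes the planned fit called 0 (0%, with 115 or 0.646% at an unadjusted p below 0.05, and 0 by DESeq2 and by limma-voom) and the blocked fit 6 (0.0337%). In the blocked fit 0 of the 10 genes had an unadjusted p below 0.05, against 3.59% of all, and in 0 of the 10 did the ranges of the 2 groups not overlap, against 4.01%.

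Between the doses, 0 of the 10 genes passed as well, where the planned fit called 0 genes (0%, with 210 or 1.18% at an unadjusted p below 0.05, and 0 by DESeq2 and by limma-voom) and the blocked fit 79 (0.444%). MYC alone had an unadjusted p below 0.05 in the blocked fit, against 8.81% of all tested genes. The groups overlapped for all 10 genes, whereas they did not for 4.87% of tested genes. MYC was lower at 20 than at 10 µM in 3 of 3 pairs, with a blocked log2 change of -0.29 ± 0.08 and an adjusted p of 0.119, which became 0.0412 without 20 µM replicate 1. MYCL was also lower in 3 of 3 pairs, by -0.40 ± 0.24 with an adjusted p of 0.674, and so was MXD3, by -0.23 ± 0.12 with an adjusted p of 0.585. The 2 comparisons with 20 µM share those libraries and are not independent of each other.

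**Figure D2:**
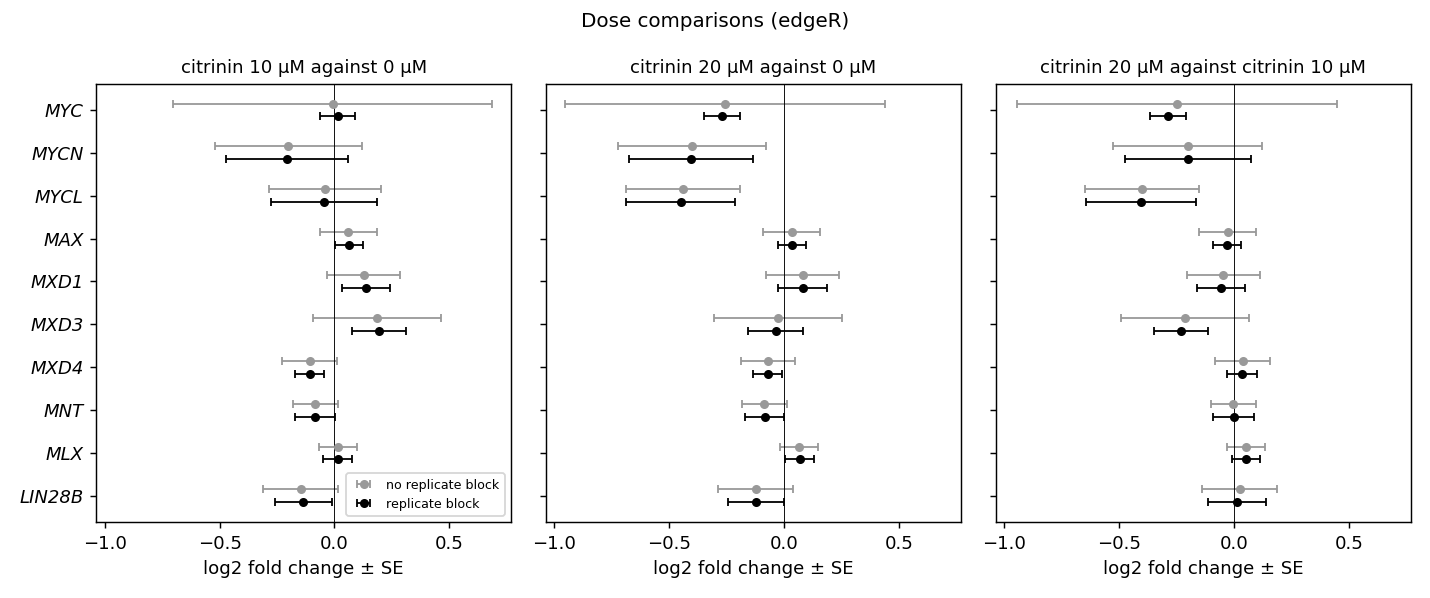
Log2 fold changes (x axis) of the 10 genes (y axis) with their standard errors, in 3 panels for the dose comparisons, in grey without and in black with the replicate number as a block. The bar of MYC at 20 µM against 0 µM shrinks from ± 0.70 to ± 0.08 with the block while its centre stays near -0.27.

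Replicate number 1 against the mean of numbers 2 and 3, with dose as a term, separated 5 of the 10 genes, where 7386 of all 17806 tested genes passed (41.5%), 20.2% higher and 21.3% lower. MYC rose most of the 10, by 1.59 ± 0.06 on the log2 scale or about 3.004-fold (adjusted p 4.08e-17, edgeR). It averaged 57.5 ± 4.40 CPM in the 3 libraries numbered 1, 19.1 ± 3.03 in those numbered 2 and 19.3 ± 2.21 in those numbered 3 (SD, n = 3). MXD3, an antagonist linked to proliferating cells, rose by 0.59 ± 0.10 (adjusted p 2.20e-05), from 13.5, 12.1 and 11.7 CPM in number 2 and 9.09, 12.8 and 9.07 CPM in number 3 to 15.8, 18.7 and 16.9 CPM in number 1. MAX rose by 0.27 ± 0.05 (adjusted p 0.000118), with 70.5 to 72.8 CPM in number 1 and 57.1 to 64.5 CPM in the others. MXD4 rose by 0.22 ± 0.05 (adjusted p 0.0016), with 71.0 to 81.6 CPM in number 1 and 60.7 to 70.9 CPM in the others.

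These 4 genes were the ones of the 10 whose ranges did not overlap between number 1 and the rest, as did 31% of all tested genes. MXD1, an antagonist linked to differentiation, fell by 0.28 ± 0.09 on the log2 scale (adjusted p 0.0171). Its values overlapped, at 13.5 to 16.8 CPM in number 1 and 16.6 to 20.0 CPM in the others. The MXD1 call was lost without control replicate 1, control replicate 2, 10 µM replicate 3, 20 µM replicate 1 or 20 µM replicate 2, with adjusted p from 0.053 to 0.142.

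MYCN, MYCL, MNT, MLX and LIN28B did not pass between replicate number 1 and the rest. Their log2 changes were -0.02 ± 0.23 for MYCN, 0.05 ± 0.20 for MYCL, -0.01 ± 0.08 for MNT, 0.02 ± 0.05 for MLX and -0.19 ± 0.11 for LIN28B. Replicate number 3 against 2 called 0 of the 10 genes with edgeR, 2 of them at an unadjusted p below 0.05, where 2090 genes passed (11.7%, 5.86% higher and 5.88% lower, and 23.6% at an unadjusted p below 0.05). MYC had a log2 change of 0.02 ± 0.08 between those numbers. MLX had ranges that did not overlap, 51.9 to 53.2 CPM in number 3 and 46.0 to 50.7 CPM in number 2, as did 27.4% of tested genes, with a log2 change of 0.14 ± 0.06 and an adjusted p of 0.172. MXD3 had -0.28 ± 0.12 and an adjusted p of 0.158, which became 0.0401 without 10 µM replicate 2.

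**Figure D3:**
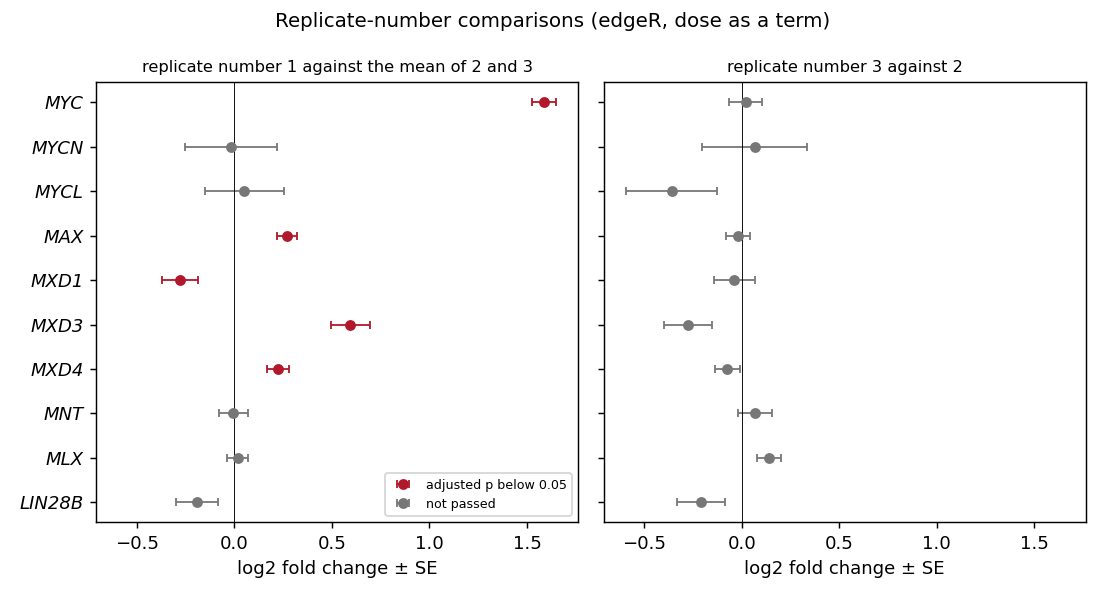
Log2 fold changes (x axis) with standard errors for the 10 genes (y axis) between replicate numbers, with dose as a term; red points have an edgeR adjusted p below 0.05. MYC lies at 1.59 for number 1 against 2 and 3, with the other 9 genes between -0.28 and 0.59, and at 0.02 for number 3 against 2.

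The balance between the paralogs followed replicate number too. Per length, MYC made up 90.2 to 92.6% of the summed MYC, MYCN and MYCL level in the libraries numbered 1 and 73.6 to 83.2% in the others. The summed level was 20.9 ± 1.56 CPM per kb in number 1, 8.22 ± 1.62 in number 2 and 8.20 ± 0.68 in number 3 (SD, n = 3). The summed level of MXD1, MXD3, MXD4 and MNT was 19.3 ± 0.46, 17.6 ± 0.17 and 16.7 ± 0.83 CPM per kb in the same order. MAX itself was 16.1 ± 0.26, 13.5 ± 0.93 and 13.3 ± 0.38 CPM per kb. Per kilobase of annotated exon, MYC transcript thus lay above MAX in number 1, at 19.1 ± 1.47 CPM per kb. It lay below MAX in numbers 2 and 3, at 6.36 ± 1.01 and 6.43 ± 0.74. With the longest coding transcript as length, 2366 bases for MYC and 3155 for MAX, the order turned in 20 µM replicate 1. That library had 52.6 CPM of MYC and 72.8 CPM of MAX. By dose the summed paralog level was 13.3 ± 7.52 CPM per kb in controls, 13.1 ± 7.46 at 10 µM and 10.98 ± 7.10 at 20 µM, with overlapping ranges.

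**Figure D4:**
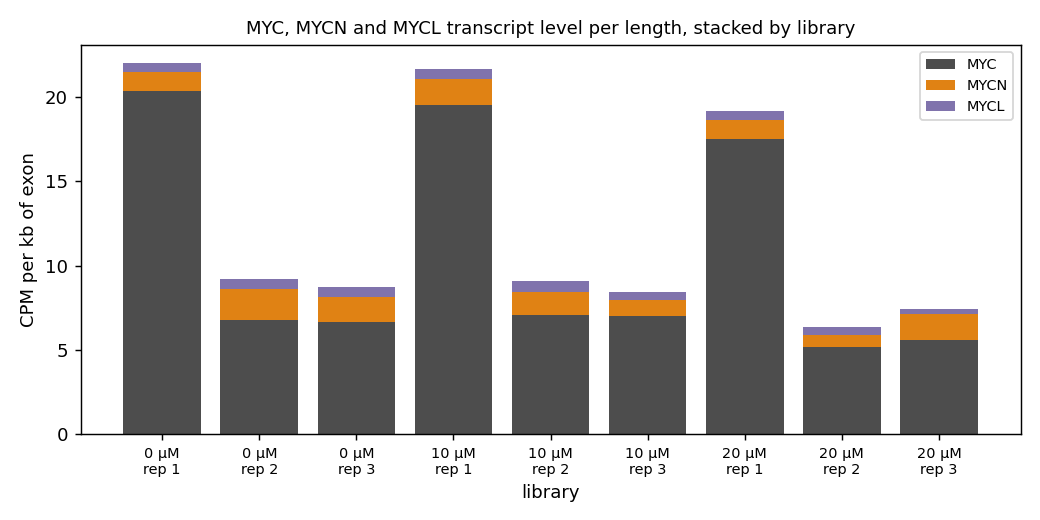
Stacked bars of MYC, MYCN and MYCL transcript level in CPM per kb of exon (y axis) in each of the 9 libraries (x axis). The 3 bars of replicate number 1 reach 19.2 to 22.004 CPM per kb and the other 6 reach 6.36 to 9.24.

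TXNIP is induced by complexes of MLX with the glucose-sensing factor MLXIP. It was the one further gene of the MAX and MLX network called in a dose comparison, and only with the block. It measured 256, 271 and 273 CPM in controls, 257, 248 and 271 CPM at 10 µM, and 231, 214 and 218 CPM at 20 µM. All 3 libraries at 20 µM lay below all 6 others. Ranges did not overlap for 6.75% of tested genes at 20 µM against control and for 4.87% between the doses. TXNIP fell by 0.27 ± 0.05 on the log2 scale at 20 µM against control in the blocked fit (adjusted p 0.000983, edgeR), and by 0.23 ± 0.05 against 10 µM (adjusted p 0.021). The blocked fit called 1.36% and 0.264% of all tested genes lower in these comparisons. The adjusted p of TXNIP without the block was 0.999997. The call against control was lost without control replicate 2 (0.0728), 20 µM replicate 3 (0.0589) or replicate number 3 as a whole (0.315). The call against 10 µM was lost without control replicate 3, 10 µM replicate 3, 20 µM replicate 2, 20 µM replicate 3 or replicate number 3, with adjusted p from 0.0672 to 0.998.

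Of the 6 tested genes of that list, 0 rose and 1 fell at 20 µM against control, with a median of -0.01, where 1.36% of all tested genes were called lower. ARRDC4, a relative of TXNIP under the same control, measured 21.8, 31.6 and 29.2 CPM in controls and 23.4, 25.7 and 21.8 CPM at 20 µM and did not pass (adjusted p 0.292 with the block, edgeR). MXI1, MGA, MLXIP and ZBTB17 did not pass either, and MLXIPL, with 43 reads in all libraries, was too low to test. In replicate number 1, 3 of the 6 rose and 1 fell, where 20.2% of all tested genes were called higher and 21.3% lower. ZBTB17, which MYC binds in repression, rose by 0.28 ± 0.07 (adjusted p 0.00114), MXI1, another MAX-binding antagonist, by 0.18 ± 0.05 (adjusted p 0.00413) and MLXIP by 0.15 ± 0.05 (adjusted p 0.0104). ARRDC4 fell by 0.21 ± 0.08 there (adjusted p 0.0396). Without control replicate 1 the calls of MXI1 and MLXIP were lost (0.0609 and 0.071). The ARRDC4 call was lost with DESeq2 (0.0974), without the dose term (0.155), and without control replicate 1, 2 or 3 or 10 µM replicate 2, with adjusted p from 0.0541 to 0.56.

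Genes that MYC is known to activate did not pass at either dose. Of 37 tested target genes, for ribosome building, nucleotide synthesis, translation, amino acid uptake and the cell cycle, 0 rose and 0 fell in any of the 3 dose comparisons in either fit, with 3 at an unadjusted p below 0.05 at 20 µM against control in the blocked edgeR fit, where 13.1% of all tested genes had one. Their blocked median at 20 µM against control was -0.02, between -0.24 and 0.26. Between replicate number 1 and the rest, where MYC differed most, 14 of the 37 rose and 9 fell, where 20.2% of all tested genes were called higher and 21.3% lower. The list had a median of 0.04 against 0.0079 over all tested genes. CAD, the enzyme that starts pyrimidine synthesis, rose by 0.47 ± 0.04 (adjusted p 5.14e-10) and CDK4, a cell cycle kinase, by 0.30 ± 0.04 (adjusted p 5.12e-06). The translation initiation factor gene EIF4E fell by 0.37 ± 0.05 (adjusted p 1.67e-06) and SLC7A5, an amino acid transporter, by 0.33 ± 0.05 (adjusted p 1.36e-05). The target list held members that moved both ways in the libraries with high MYC, with more called higher than lower. Whether MYC had a part in these changes was not tested.

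The 14 cofactor genes, which include the TRRAP scaffold and the SIN3 and HDAC repressor subunits, and the 14 genes for MYC protein stability, such as the ubiquitin ligase gene FBXW7, had 0 called in any dose comparison. At 20 µM against control 0 and 3 of them had an unadjusted p below 0.05 in the blocked edgeR fit, as did 13.1% of all tested genes, and their blocked medians were -0.0022 and -0.05. In replicate number 1, 6 of the 14 cofactor genes rose and 0 fell, where 20.2% of all tested genes were called higher and 21.3% lower. KAT2A, a histone acetyltransferase, rose by 0.42 ± 0.06 (adjusted p 7.21e-07) and SIN3B by 0.23 ± 0.05 (adjusted p 0.000463). Of the 14 stability genes 1 rose and 3 fell there, with SKP2, a ubiquitin ligase subunit, up by 0.30 ± 0.05 (adjusted p 3.24e-05) and the kinase gene GSK3B down by 0.21 ± 0.05 (adjusted p 0.00177).

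In the list for LIN28 and let-7, 0 of 19 tested genes passed in any dose comparison, with 3 at an unadjusted p below 0.05 at 20 µM against control in the blocked edgeR fit, where 13.1% of all tested genes had one. LIN28A, the paralog of LIN28B, had 7 reads in all 9 libraries and was not tested. LIN28B itself measured 9.46, 13.0 and 10.4 CPM in controls, 9.28, 9.93 and 10.5 CPM at 10 µM and 9.46, 11.7 and 9.07 CPM at 20 µM. Control replicate 2 was its highest library, and the dose groups overlapped. In replicate number 1, 3 of the 19 genes rose and 6 fell, where 20.2% of all tested genes were called higher and 21.3% lower, so the list is close to the 41.5% called over all genes. Among the let-7 targets in it were HMGA2 down by 2.34 ± 0.28 (adjusted p 1.58e-07) and CCND1 down by 0.46 ± 0.04 (adjusted p 1.28e-10), and IGF2BP2 up by 1.06 ± 0.19 (adjusted p 3.88e-05). HMGA2 was low in number 1, at 0.58, 0.35 and 1.02 CPM at 0, 10 and 20 µM. IGF2BP2 measured 5.14, 1.42 and 4.28 CPM in controls 1, 2 and 3 and was lowest in number 2 at each dose.

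Among 10 tested neighbours and antisense transcripts, 1 fell and 0 rose at 20 µM against control in the blocked fit, which called 1.36% of all tested genes lower and 0.848% higher. BVES, on the chromosome of LIN28B, fell by 0.25 ± 0.06 (adjusted p 0.028, edgeR with the block), and did not pass with DESeq2 (0.0703). The BVES call was also lost without control replicate 2 or 3, 10 µM replicate 3, 20 µM replicate 2 or 3, or replicate number 2 or 3 as a whole, with adjusted p from 0.0607 to 0.408. In replicate number 1, 2 of these 10 genes rose and 3 fell. Over all tested genes 20.2% were called higher and 21.3% lower there. PVT1, the long noncoding RNA next to MYC, was among those that fell, by 0.36 ± 0.12 (adjusted p 0.0166). It measured 9.05, 9.36 and 11.2 CPM in controls and 6.81, 9.66 and 12.4 CPM at 20 µM. Over all doses its values overlapped, at 6.81 to 9.75 CPM in number 1 and 9.36 to 12.4 CPM in the others. That PVT1 call was lost without 20 µM replicate 1 (0.219) or 20 µM replicate 3 (0.0652). MYCNOS, antisense to MYCN, had 49 reads in all, and MYCL-AS1, antisense to MYCL, had 2.

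Marker lists for neuroblastoma states moved in the same comparisons, and their part in the levels of the 10 genes was not tested. At 20 µM against control with the block, 8 of 12 adrenergic markers fell and 5 of 12 mesenchymal markers rose, and 2 of 8 proliferation markers fell, where 0.848% of all tested genes were called higher and 1.36% lower. The planned fit called 0 genes of each list. Some blocked calls were lost when a library or replicate number was left out. The edgeR adjusted p then reached 0.12 for CHGA, 0.218 for STMN2 and 0.069 for TFAP2B, which are adrenergic. It reached 0.527 for VIM and 0.24 for YAP1, which are mesenchymal. The proliferation markers that fell were TOP2A, by 0.23 ± 0.05 (adjusted p 0.00517), and MKI67, by 0.20 ± 0.05 (adjusted p 0.0256). The TOP2A call was lost without control replicate 2, 20 µM replicate 3 or replicate number 3. The MKI67 call was lost with DESeq2 (0.0563) and without control replicate 2 or 3, 10 µM replicate 3, 20 µM replicate 2 or 3, or replicate number 2 or 3. The summed adrenergic level was 3172 to 4174 CPM in controls and 2678 to 3851 CPM at 20 µM. In replicate number 1, 10 of the 12 adrenergic markers rose and 2 fell, where 20.2% of all tested genes were called higher and 21.3% lower. DBH, the enzyme that makes noradrenaline, rose there by 0.69 ± 0.05 (adjusted p 1.35e-12). DBH measured 144, 90.3 and 87.5 CPM in controls 1, 2 and 3 and 128, 78.3 and 72.6 CPM at 20 µM, so it was higher in the libraries numbered 1, as MYC was. Of the 12 mesenchymal markers 5 rose and 4 fell in number 1. In number 3 against 2, where MYC did not pass, 9 rose and 0 fell, against 5.86% of all tested genes called higher and 5.88% lower. Of the 8 proliferation markers 0 rose and 3 fell in number 1, where MXD3 rose, and 0 rose and 4 fell in number 3 against 2. MKI67 measured 200, 270 and 211 CPM in controls 1, 2 and 3 and was highest in number 2 at each dose. Each of the 3 calls in number 1 was lost with some single library left out. The edgeR adjusted p was then 0.0831 for CCNB1, 0.0889 to 0.105 for PCNA and 0.0533 to 0.451 for MKI67. The MKI67 call there was also lost with DESeq2 (0.0592) and without the dose term (0.118). In bulk RNA a lower level can come from fewer cells that express a gene or from less RNA per cell, and these cannot be told apart.

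The genes closest in pattern were found by the root mean square difference of centred log2 profiles over the 9 libraries, among 12302 genes of at least 2 CPM on average. For MYC they were SERPINF1, SYN2 and SOX2, with differences of 0.083, 0.15 and 0.15 on the log2 scale against a median of 0.77 over all compared genes. For MXD3 they were YPEL1, MYLIP and PCDH9, at 0.11, 0.12 and 0.13 against a median of 0.37. MYCL was nearest to GFRA2, MAML3 and C14orf93, at 0.10, 0.13 and 0.13 against 0.33. MYCN was nearest to LRRC7, DEPDC4 and MRPL46, at 0.15, 0.23 and 0.24 against 0.42. These profiles share libraries, and the likeness is a description.

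Reads in exons shared with another gene, on either strand because counting did not use strand, were set aside as ambiguous, and the levels of some of the 10 genes are lower limits. MXD3 shares 18.0% of its exon bases with RAB24, on the same strand, and 22.5% with PRELID1, on the other, MLX 18.1% with PSMC3IP, and MNT 12.2% with an antisense gene. The share was 3.77% for MYCN with MYCNOS and 4.46% for MYCL with MYCL-AS1.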

How the data were processed

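RNA-seq libraries of SH-SY5Y cells, 3 at each of 0, 10 and 20 µM citrinin, were grouped by their titles. FastQC, cutadapt, STAR, edgeR and GRCh38 are named in the submitters' processing notes, with neither versions nor an annotation release. The authors deposited raw read counts per gene from STAR, unstranded and for each strand, per the file headers. The unstranded counts were used, since the strands were about equal (ratio 0.981 to 0.993). Reads assigned to genes were 76.4 to 78.0% of each library, and ambiguous reads (9.51 to 10.1%) and other unassigned reads were left out. The authors also deposited a log2 CPM table of 36838 genes, which recomputing from the counts matched within 1e-06 for 100% of values, and which entered no test.

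Symbols were matched for 61369 identifiers, and 58312 were in GENCODE 29. Genes were filtered with filterByExpr (17806 left), scaled by TMM (0.989 to 1.013) and tested with edgeR's quasi-likelihood test (robust) on all 9 libraries (edgeR 4.0.16 in R 4.3.3; alternatives in DESeq2 1.42.0 and limma 3.58.1), with Benjamini-Hochberg adjustment over all tested genes and a threshold of 0.05. The planned fit had dose groups only. Same-numbered libraries deviated together (9 of 9 pairs, r 0.532 to 0.745, limit 0.1, against -0.602 to 0.175 for other pairs), so the replicate number, taken from the titles, was taken to pair the samples and blocked values are given. Residual degrees of freedom were 6 without and 4 with the block. Chi-square tests between libraries of a group gave at least 8.67 per degree of freedom, so none was a repeat of another. SE is the absolute log2 change over the square root of F. CPM per kb uses the union of GENCODE exons, and profiles use log2(CPM + 0.1).

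On simulated counts for 20 µM against control with 17806 genes, 50 at each fold, true changes of 1.25, 1.5, 2 and 3 times were called for 40%, 74%, 82% and 84% of genes by the blocked fit, which made 6 false calls. The fit without the block called 0%, 10%, 46% and 46% and made 0 false calls. The counts were drawn from the blocked model, with its replicate effects and dispersions kept. The simulation therefore favours the blocked fit by construction and cannot show whether that model holds for these data.

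The 10 genes, the gene lists and the tests were chosen with earlier results of these data known. All 10 genes are named whatever their p, and of each further list up to 4 genes with the smallest p among those past the threshold, with their comparison. Genes named although they did not pass, the nearest neighbours by pattern excepted, were chosen after their values were seen. Alternatives were other size factors, no low-count filter, DESeq2, limma-voom, no dose term, and each library or replicate number left out. The values of 1 listed marker gene are not reported here.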

Additional observations from a re-analysis of the deposited data

How the results depend on the processing

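From 0 in the planned fit, the calls over all genes at 20 µM against control went to 6 with no low-count filter, 11 with DESeq2, 393 with the block in edgeR, 266 with the block in DESeq2 and 381 with the block in limma-voom. At 10 µM against control they went from 0 to 6, 6 and 7 with the block in edgeR, DESeq2 and limma-voom, and between the doses from 0 to 79, 68 and 77. In the blocked fits, no low-count filter gave 23 calls at 10 µM against control and 188 between the doses. Leaving out 1 library or 1 replicate number gave 0 to 1 calls at 20 µM against control without the block and 48 to 729 with it. It gave 0 to 16 calls at 10 µM against control and 0 to 301 between the doses with the block, and 1189 to 2793 for replicate number 3 against 2. The cause of these shifts was not tested.

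The change of MYC at 10 µM against control, near 0, turned sign in the planned fit to 0.014 with the block, 0.019 with the block in DESeq2 and 0.026 with limma-voom, and to -0.0006959 in the blocked fit with limma-voom. Other changes turned sign only when a library or replicate number was left out, and these had the following log2 ranges. At 20 µM against control without the block they were MYC -1.06 to 0.49, MXD1 -0.044 to 0.18, MXD3 -0.30 to 0.16, MXD4 -0.17 to 0.021, MAX -0.078 to 0.14 and LIN28B -0.24 to 0.020. At 10 µM against control they were MYC -0.68 to 0.74, MYCL -0.13 to 0.075, MLX -0.039 to 0.061, MXD3 -0.038 to 0.37 and MAX -0.0077 to 0.17. Between the doses they were MYC -1.05 to 0.42, MAX -0.14 to 0.044, MXD3 -0.49 to 0.0096, LIN28B -0.096 to 0.093, MXD1 -0.17 to 0.057, MXD4 -0.064 to 0.11, MNT -0.042 to 0.066, MYCN -0.49 to 0.054, TFAP2B -0.74 to 0.0042 and CD44 -0.030 to 0.63.

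With the replicate block the ranges at 20 µM against control were MXD3 -0.12 to 0.096, MXD1 -0.019 to 0.14 and MYCN -0.79 to 0.023. At 10 µM they were MYCN -0.53 to 0.10, MLX -0.015 to 0.031, MYC -0.026 to 0.087, MYCL -0.21 to 0.13 and MNT -0.16 to 0.0053. Between the doses they were MYCN -0.68 to 0.16, MXD1 -0.22 to 0.033, MXD4 -0.020 to 0.11, MAX -0.069 to 0.041, LIN28B -0.10 to 0.13 and MNT -0.060 to 0.074. For replicate number 1 against the rest they were MYCN -0.26 to 0.25, MNT -0.083 to 0.052, MYCL -0.085 to 0.22 and MLX -0.0020 to 0.036. For number 3 against 2 they were MXD1 -0.19 to 0.054, MAX -0.067 to 0.045, MXD4 -0.16 to 0.0022, MYC -0.037 to 0.067 and MYCN -0.29 to 0.38. The gene length by longest coding transcript was chosen after seeing the data. MYCN and MYCL, with 519 and 414 reads in all, limit what could be detected.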
